A study of Homo sapiens with 3 samples.

Results

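The tricarboxylic acid (TCA) cycle was followed through 9 genes that encode its enzymes, CS, IDH3A, IDH3B, IDH3G, OGDH, SUCLA2, SUCLG1, FH and MDH2. They were taken by gene symbol and not by their values, and all 9 were found among the 17448 genes of the deposited table. RNA was sequenced from H128 cells, an established human small cell lung cancer (SCLC) line, 48 h after transfection with a control siRNA (siCont) or with an siRNA against ESRRG, the gene that encodes estrogen-related receptor gamma (ERRγ). There were 3 libraries, 1 for each condition, labelled siCont, siERRG2 and siERRG3, and the sources do not settle which of the published siRNA sequences the labels siERRG2 and siERRG3 stand for. The 3 libraries share the cell line and the transfection, and differ by the siRNA.

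In the TCA cycle, acetyl-CoA is joined to oxaloacetate and oxidized step by step in the mitochondrial matrix, which yields NADH and FADH2 for the respiratory chain and carbon skeletons for biosynthesis. The receptors of the ERR family are known as activators of genes of oxidative metabolism, among them genes of this cycle, in tissues of high energy demand such as heart and skeletal muscle. All 9 genes carry the KEGG citrate cycle label and the mitochondrial matrix label in the annotation of the table. The table also assigns 5 of the 9 genes, CS, IDH3A, IDH3G, SUCLA2 and FH, to sets of genes with an ERR1 motif near their start, as it does 1038 of all 17448 genes, or 5.95%.

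Total estimated counts ranged from 19861937 to 20016780 per library. The target ESRRG stood at 806 counts in siCont, and the knockdown libraries held 211 (siERRG2) and 230 (siERRG3), log2 fold changes of -1.94 and -1.82. Of the markers of neuroendocrine SCLC, INSM1, SYP, CHGA, NCAM1 and NEUROD1 had between 2751 and 10359 counts in every library and DLL3 had 389 to 578. Markers of other cells were low, with at most 29 counts for PTPRC of leukocytes, 27 for PECAM1 of endothelium and 8 for DCN of fibroblasts, and 127 to 181 for COL1A1. The neuroendocrine markers differed between the libraries in both directions. Listed as siCont, siERRG2, siERRG3, counts were 10359, 5279 and 9168 for INSM1, lowest with siERRG2. NEUROD1 (7395, 7020, 4073) and SYP (5279, 5169, 3779) were lowest with siERRG3. CHGA (3282, 3750, 2751) was highest with siERRG2, and NCAM1 (7173, 6567, 8136) and DLL3 (389, 486, 578) were highest with siERRG3. The part of these shifts in the results on the 9 genes was not tested.

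Since each condition has 1 library, no difference can be checked against replicates and no p-value is given. The call rests on log2 CPM, the TMM-scaled count per 1e+06 reads, and genes called lower or higher differed by at least 1.2-fold, which is the threshold of the study. Ratios of scaled counts are given with their 95% exact (Clopper-Pearson) interval, which holds counting error alone, so that it speaks of these libraries and not of the conditions. In bulk RNA, fewer cells with a transcript and less of it per cell cannot be told apart. The 9 genes averaged 1221 to 13782 counts over the 3 libraries, and all were among the 14031 genes that reached 10 counts in any library. The 7254 genes that averaged 500 counts or more are called well-covered genes in what follows.

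Levels were compared between genes in FPKM, which scales a count by transcript length and library size. In siCont MDH2 had the highest level, 318 FPKM, followed by CS with 201, IDH3G with 104, SUCLG1 with 74.1, IDH3B with 67.6, IDH3A with 49.8, OGDH with 38.3, FH with 34.2 and SUCLA2 with 26.4. The highest level was 12.1 times the lowest, and the 95% Poisson intervals of neighbours in this order did not overlap. The median of the 9 genes was 67.6 FPKM in siCont, 65.9 in siERRG2 and 78.7 in siERRG3, against 8.02, 8.02 and 7.72 for all genes that passed the minimum. The gene at the median was IDH3B in siCont and SUCLG1 in both knockdown libraries, so the medians do not follow the same gene. Summed FPKM of the 9 genes was 913, 868 and 909 in the same order. Among all genes that passed the minimum, MDH2 stood at rank 195 and CS at rank 336 in siCont, and SUCLA2, the lowest of the 9, at rank 3141.

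The order of levels differed in the knockdown libraries. IDH3B moved above SUCLG1 in both, and in siERRG3 it reached IDH3G, with 107 and 106 FPKM and overlapping intervals. FH and OGDH exchanged places in siERRG2, with 36.9 and 30.1 FPKM. FH became the lowest of the 9 genes in siERRG3, with 28.4 FPKM against 30.4 for SUCLA2, and these intervals overlap as well. The intervals of OGDH and SUCLA2 in siERRG2, 30.1 and 28.0 FPKM, also overlap.

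**Figure D1:**
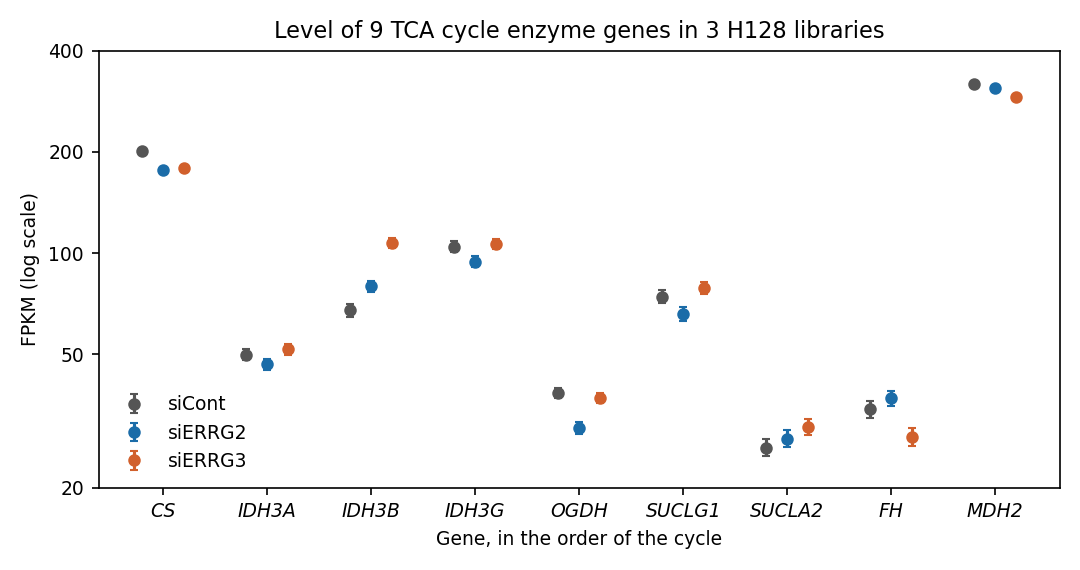
Level of the 9 genes in FPKM (log axis) in siCont, siERRG2 and siERRG3, 1 library each, in the order of the cycle. Points are the deposited values and bars the 95% Poisson interval of the count; MDH2 and CS lie highest, at 318 and 201 FPKM in siCont, and IDH3B is the gene whose 3 points are spread most, from 67.6 to 107 FPKM.

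CS (gene ID 1431) encodes citrate synthase, which joins acetyl-CoA and oxaloacetate at the entry of the cycle. It lies on chromosome 12 from 56271699 to 56300330 (RefSeq, GRCh38.p14). The siCont library held 11922 counts, siERRG2 10549 and siERRG3 10715. Both knockdown libraries lay below siCont by a similar amount, with log2 fold changes of -0.19 and -0.18 and count ratios of 0.875 (0.852 to 0.898) and 0.884 (0.861 to 0.907). The change was under 1.2-fold in each, and siERRG3 against siERRG2 had a ratio of 1.01, with an interval of 0.983 to 1.04 that holds 1. In the table the extent of CS overlaps PAN2, CNPY2, COQ10A and SLC39A5, of which the highest, CNPY2, reached 1568 counts, and the counts of CS were whole numbers.

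Isocitrate dehydrogenase 3, the NAD-dependent enzyme that makes 2-oxoglutarate from isocitrate, is built of a catalytic subunit from IDH3A and of further subunits from IDH3B and IDH3G. IDH3B (gene ID 3420) lies on chromosome 20 from 2658395 to 2664216. Its transcript reached 1978 counts with siCont, 2368 with siERRG2 and 3129 with siERRG3, equal to 67.6, 79.5 and 107 FPKM. It was lowest in siCont and highest in siERRG3, with no overlap between the intervals of the 3 libraries. The log2 fold change was 0.24 (0.16 to 0.33) for siERRG2, just under the threshold, a ratio of 1.18. It was 0.64 for siERRG3, a ratio of 1.56 (1.47 to 1.65). Between the knockdown libraries its log2 fold change was 0.39, with a ratio of 1.31 (1.25 to 1.39). Among the well-covered genes these changes stood at percentile 88.9 in siERRG2 and 98.1 in siERRG3. The counts of IDH3B were whole numbers in all 3 libraries, with no sign of reads divided with another gene. In the table it overlaps NOP56, whose log2 fold changes were -0.04 and 0.14, from counts of 7823, 7681 and 8748.

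The other subunits did not follow IDH3B. IDH3A (gene ID 3419, chromosome 15 from 78149362 to 78171945) held 2655 counts under siCont, 2493 under siERRG2 and 2814 under siERRG3. It was lowest in siERRG2, where the ratio to siCont was 0.928 (0.879 to 0.981), and within counting error of siCont in siERRG3, with a log2 ratio of 0.06 (-0.02 to 0.14). IDH3G (gene ID 3421, chromosome X from 153785768 to 153794375) held 3092, 2791 and 3180 counts in the same order. It showed the same pattern, with ratios of 0.892 (0.848 to 0.940) and 1.01 (0.962 to 1.06). Reads of IDH3A and IDH3G had in part been divided with other genes, since their counts were not whole. Among the neighbours that IDH3G overlaps is SSR4, with 3747, 4242 and 3649 counts, highest in siERRG2 where IDH3G was lowest, and the part of shared reads in this was not tested.

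Promoter windows of RefSeq (GRCh38.p14, 250 bases before to 50 after the start) were matched for 8 of the 9 genes, all except OGDH. They were searched on both strands for the ERR response element TCAAGGTCA, its looser form TNAAGGTCA, the core AAGGTCA, the NRF1 palindrome and, chosen after the data were seen, the half-site AGGTCA, which the core and both longer forms contain. TCAAGGTCA, TNAAGGTCA and the palindrome were in 0 of the 8 windows, and in 0.353%, 0.951% and 1.24% of all 35116 windows. AAGGTCA was in 1 of the 8, that of SUCLA2, and in 3.92% of all windows. AGGTCA was in 2 of the 8, those of SUCLA2 and IDH3B, and in 13.8% of all. CS, IDH3A, IDH3G and FH, which the annotation assigns to ERR1 motif sets, thus had no match in these windows. The region and motif rule behind those sets were not compared with the windows and motifs used here. The windows of the 3 subunits of isocitrate dehydrogenase 3, whose transcripts parted, and of SUCLA2, which holds the core, are shown 5′ to 3′ with matches in capitals, AAGGTCA at positions 68 to 74 of the SUCLA2 window and the reverse complement of AGGTCA at positions 119 to 124 of the IDH3B window. IDH3A is chr15:78149112-78149411 on the plus strand, IDH3B is chr20:2664167-2664466, IDH3G is chrX:153794326-153794625 and SUCLA2 is chr13:48001224-48001523, the last 3 on the minus strand.
IDH3A: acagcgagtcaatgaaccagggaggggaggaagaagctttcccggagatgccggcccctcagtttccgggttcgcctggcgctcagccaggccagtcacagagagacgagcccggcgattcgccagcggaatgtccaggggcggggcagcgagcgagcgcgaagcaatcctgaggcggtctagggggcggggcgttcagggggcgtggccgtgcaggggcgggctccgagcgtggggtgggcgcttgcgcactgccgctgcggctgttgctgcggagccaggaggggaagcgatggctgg
IDH3B: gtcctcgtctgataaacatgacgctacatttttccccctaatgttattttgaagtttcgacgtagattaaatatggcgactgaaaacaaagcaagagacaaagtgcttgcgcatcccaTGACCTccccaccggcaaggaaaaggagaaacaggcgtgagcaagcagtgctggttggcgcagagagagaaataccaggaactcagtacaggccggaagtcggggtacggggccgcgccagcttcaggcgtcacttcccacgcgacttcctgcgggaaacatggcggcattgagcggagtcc
IDH3G: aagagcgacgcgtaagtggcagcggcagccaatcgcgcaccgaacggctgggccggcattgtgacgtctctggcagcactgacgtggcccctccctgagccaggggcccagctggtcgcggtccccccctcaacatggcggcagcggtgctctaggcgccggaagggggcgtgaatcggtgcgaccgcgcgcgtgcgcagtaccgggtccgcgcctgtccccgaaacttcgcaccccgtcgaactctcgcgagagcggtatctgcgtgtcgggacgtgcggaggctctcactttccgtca
SUCLA2: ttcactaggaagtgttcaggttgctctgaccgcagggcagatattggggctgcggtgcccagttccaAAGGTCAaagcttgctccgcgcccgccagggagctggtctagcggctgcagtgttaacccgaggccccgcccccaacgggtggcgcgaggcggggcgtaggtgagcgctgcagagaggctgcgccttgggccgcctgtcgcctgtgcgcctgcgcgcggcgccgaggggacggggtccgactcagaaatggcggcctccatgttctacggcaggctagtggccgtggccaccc

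The GC content of these windows was 70.0% for IDH3A, 53.3% for IDH3B, 69.0% for IDH3G and 68.3% for SUCLA2, against a median of 58.7% over all windows. IDH3B thus had the lowest GC content of the 4 windows, but a low value was not particular to it. Among the other matched windows, SUCLG1 had 56.3%, and FH lay between IDH3B and SUCLG1, so both were also below this median. CS, with 67.3%, and MDH2, with 66.7%, were above it. A match describes letters only, and no binding of ERRγ was measured in these files.

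OGDH (gene ID 4967) encodes the 2-oxoglutarate dehydrogenase subunit of the complex that makes succinyl-CoA. Its position is chromosome 7 from 44606627 to 44709066. Of its counts, siCont held 3035, siERRG2 2399 and siERRG3 2870. siERRG2 stood apart below the others. Against siCont the log2 fold change was -0.36 for siERRG2, a ratio of 0.781 (0.740 to 0.825), but -0.10 for siERRG3, a ratio of 0.930 (0.883 to 0.979). OGDH was the gene of the 9 that was called lower in siERRG2. In siERRG3 against siERRG2 its ratio was 1.19 (1.13 to 1.26), just under 1.2-fold. It passed 1.2-fold with TMM over genes averaging 50 counts and with FPKM and a pseudocount of 0.1 or 1. OGDH counts were not whole, and the table places it across TMED4, ZMIZ2, NPC1L1, DDX56 and H2AFV. The ratio of count to FPKM gives an implied transcript length of 3991 bases for siCont, 4001 for siERRG2 and 3869 for siERRG3, shortest in siERRG3.

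Succinate-CoA ligase, which turns succinyl-CoA into succinate, pairs the subunit from SUCLG1 with that from SUCLA2 in its ADP-forming form or that from SUCLG2 in its GDP-forming form. SUCLG1 (gene ID 8802, chromosome 2 from 84423528 to 84459280) reached 2130 counts with siCont, 1896 with siERRG2 and 2279 with siERRG3. It was below siCont in siERRG2, with a ratio of 0.880 (0.827 to 0.937), and within counting error in siERRG3, with 1.05 (0.991 to 1.12). SUCLA2 (gene ID 8803, chromosome 13 from 47942656 to 48001273) reached 1134, 1208 and 1321 counts. It was within counting error in siERRG2, with 1.05 (0.970 to 1.14), and above siCont in siERRG3, with 1.15 (1.06 to 1.24). Neither gene passed 1.2-fold in any of the 3 comparisons in the main setting. SUCLG1 passed it in siERRG3 against siERRG2 with TMM over genes averaging 50 counts.

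FH (gene ID 2271) encodes fumarase, which hydrates fumarate to malate, and sits on chromosome 1 from 241497603 to 241519755. Its counts were 1270 under siCont, 1371 under siERRG2 and 1067 under siERRG3. Here siERRG3, not siERRG2 as for OGDH, stood below the others. Relative to siCont, siERRG2 had a ratio of 1.07 (0.988 to 1.15) and siERRG3 of 0.826 (0.761 to 0.897), or 0.09 and -0.28 as log2 fold changes. The latter lay just past the threshold, which is 0.26 on the log2 scale, and was short of it with total-count scaling, with TMM over genes averaging 50 counts or with FPKM and a pseudocount of 1. Between the knockdown libraries the log2 fold change was -0.37, with a ratio of 0.774 (0.714 to 0.839). No other gene of the table overlaps its extent, and its counts were whole.

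MDH2 (gene ID 4191) encodes mitochondrial malate dehydrogenase, which restores oxaloacetate at the end of the cycle. On chromosome 7 it runs from 76048106 to 76067508, and siCont held 14260 of its counts, siERRG2 13928 and siERRG3 13157. The siCont library was highest and siERRG3 lowest. Ratios were 0.966 (0.943 to 0.988) for siERRG2 and 0.907 (0.886 to 0.929) for siERRG3. These are small changes that the depth of this gene sets apart from 1, both under 1.2-fold.

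**Figure D2:**
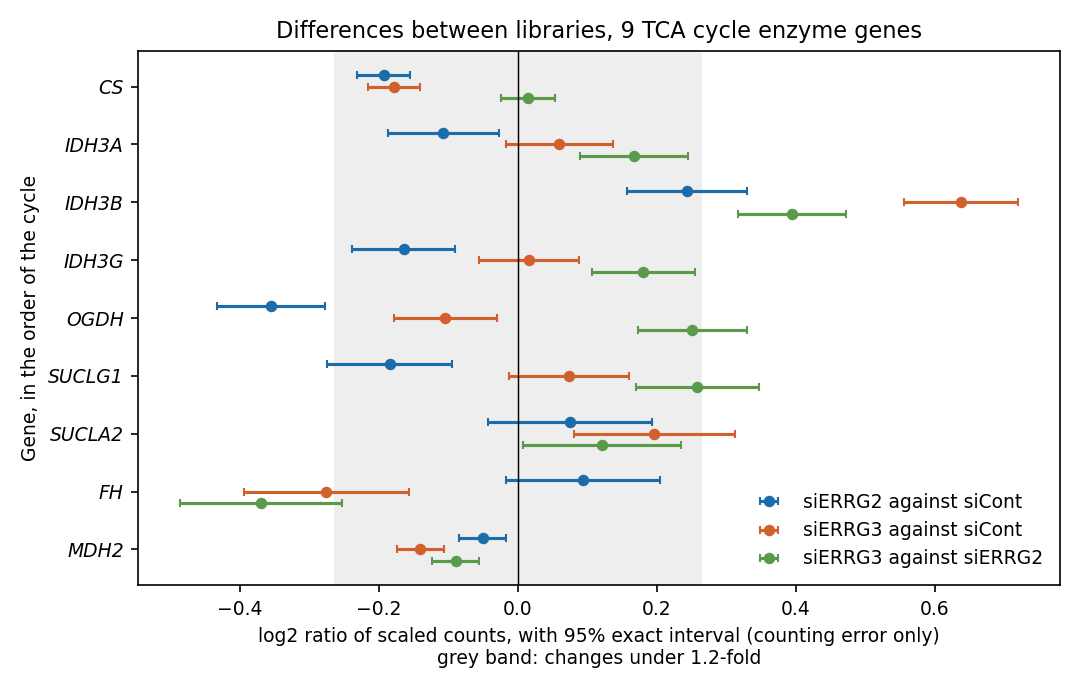
Log2 ratio of scaled counts of the 9 genes in each of the 3 comparisons, with bars for the 95% exact interval and a grey band for changes under 1.2-fold. IDH3B in siERRG3 lies farthest right, at 0.64, and OGDH in siERRG2 and FH in siERRG3 lie left of the band, while the points of CS for both knockdown libraries sit together near -0.19.

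In siERRG2, 1 of the 9 genes was called lower, OGDH, and 0 were called higher. Of all 14031 genes 19.2% were called lower and 16.4% higher, and of the well-covered genes 11.8% and 9.55%, so this count was near the background. By the interval alone, 6 of the 9 lay below 1, CS, IDH3A, IDH3G, OGDH, SUCLG1 and MDH2, against 22.4% of all genes and 29.0% of well-covered ones. IDH3B lay above 1, against 21.7% and 30.7%. The higher the counts of a gene, the smaller the change that its interval sets apart from 1. The 9 genes averaged 1221 to 13782 counts, and the shares by the interval, here and below, were not matched for depth. The median log2 fold change of the 9 genes was -0.11, and that of the well-covered genes was 0.01. The differences were small, from -0.36 for OGDH to 0.24 for IDH3B.

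In siERRG3, 1 gene was called lower, FH, and 1 higher, IDH3B, against 25.1% lower and 23.2% higher of all genes, and 22.0% and 16.3% of well-covered ones. The interval lay below 1 for 4 genes, CS, OGDH, FH and MDH2, against 28.5% and 37.5%, and above 1 for IDH3B and SUCLA2, against 27.1% and 34.6%. The counts of the 9 genes did not stand out from these shares. Their median log2 fold change was 0.02, or -0.04 without IDH3B, against -0.01 for well-covered genes.

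Set against each other, siERRG3 had 1 gene called lower than siERRG2, FH, and 1 higher, IDH3B, where 25.3% and 26.4% of all genes were called, and 23.2% and 19.0% of well-covered ones. By the interval, 6 genes were above 1, the 3 IDH3 genes, OGDH, SUCLG1 and SUCLA2, against 29.1% of all genes and 36.3% of well-covered ones. FH and MDH2 lay below 1, against 28.4% and 37.9%, and CS held 1. The median log2 fold change was 0.17, against -0.0041 for well-covered genes. These comparisons share libraries with each other and are not independent. Summed over the 9 genes, scaled CPM was 2102 with siCont, 1954 with siERRG2 (0.930 times siCont) and 2020 with siERRG3 (0.961 times). The largest terms of this sum were MDH2 (723, 698 and 656) and CS (604, 529 and 534), so it mainly follows these genes.

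Subunits of an enzyme were then set against each other within a library, where the scaling between libraries cancels. The ratio of IDH3B to IDH3A in FPKM was 1.36 in siCont, 1.71 in siERRG2 and 2.07 in siERRG3. In counts it was 1.27 times that of siCont in siERRG2 (1.17 to 1.38, exact conditional 95% interval) and 1.49 times in siERRG3 (1.38 to 1.61). The ratio of IDH3G to IDH3A was 2.10, 2.02 and 2.06 in FPKM, and its change was within counting error in siERRG2, 0.961 (0.891 to 1.04), and in siERRG3, 0.970 (0.902 to 1.04). The transcripts of IDH3A and IDH3G thus kept their proportion within counting error, and IDH3B did not keep its own to either.

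In succinate-CoA ligase, SUCLA2 had 0.356 times the FPKM of SUCLG1 in siCont, 0.425 times in siERRG2 and 0.387 times in siERRG3. In counts, the interval of the change was 1.08 to 1.33 for siERRG2, above 1, while the change of 1.09 for siERRG3 had an interval from 0.985 that holds 1. SUCLG2 had 7.28, 6.28 and 6.36 FPKM, so the transcript of the ADP-forming subunit was 3.62, 4.46 and 4.79 times that of the GDP-forming one. In counts this ratio was 1.27 times that of siCont in siERRG2 (1.06 to 1.51) and 1.31 times in siERRG3, both intervals above 1.

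In the 2-oxoglutarate dehydrogenase complex, DLST encodes the succinyltransferase core and DLD the lipoamide dehydrogenase that other complexes share. OGDH had 0.573 times the FPKM of DLST in siCont, 0.491 times in siERRG2 and 0.504 times in siERRG3. In counts the ratio was 0.836 times (0.778 to 0.898) that of siCont in siERRG2 and 0.833 times (0.778 to 0.893) in siERRG3. The transcript length implied for DLST was 1.03 and 1.02 times that of siCont, and with the lengths of siCont kept the FPKM ratio in siERRG3 was 0.477. DLD to OGDH was 1.34 times (1.25 to 1.44) siCont in siERRG2 and 1.21 times (1.13 to 1.30) in siERRG3.

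**Figure D3:**
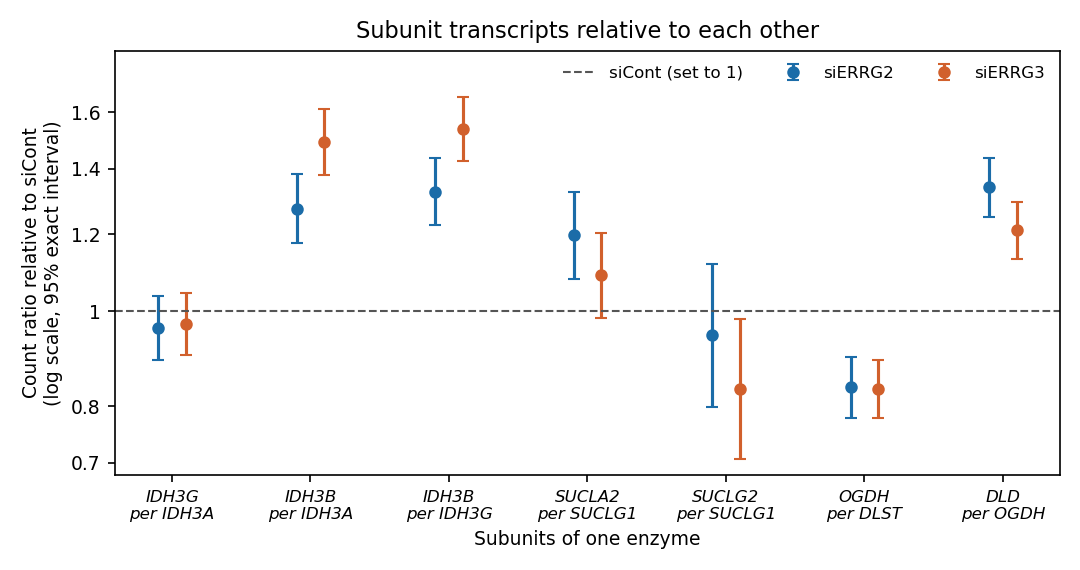
Ratio of the counts of subunits of 1 enzyme in siERRG2 and siERRG3 relative to siCont, which is set to 1 (log axis, bars are exact conditional 95% intervals). IDH3G per IDH3A lies at 0.961 and 0.970 with bars across 1, while IDH3B per IDH3A lies at 1.27 and 1.49 with bars above 1.

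The remaining enzymes of the cycle were read from a list of 11 further subunits and isoenzymes, all of which passed the minimum. In siERRG2, 4 of the 11 were called lower, among them OGDHL, SUCLG2 and SDHD, and 0 higher, against 19.2% lower and 16.4% higher of all genes. The interval lay below 1 for 9, against 22.4% of all genes and 29.0% of well-covered ones. Succinate dehydrogenase, which is also complex II of the respiratory chain, has 4 subunits, and the interval of each lay below 1 in siERRG2, with log2 fold changes of -0.17 for SDHA, -0.18 for SDHB, -0.26 for SDHC and -0.33 for SDHD. Over the 20 genes of the cycle together, a grouping chosen after the data were seen, the interval lay below 1 for 15 and above 1 for 2 in siERRG2, where it did so for 29.0% and 30.7% of well-covered genes, and the median log2 fold change was -0.17. The 20 genes averaged 327 to 13782 counts, so some were not well-covered, and the part of depth in this count was not tested.

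In siERRG3, 3 of the 11 were called lower, IDH2, OGDHL and SDHD, and 0 higher, against 25.1% and 23.2% of all genes. The interval was below 1 for 4 and above 1 for 3, against 37.5% and 34.6% of well-covered genes, close to the background. The subunits of succinate dehydrogenase parted, with -0.09 for SDHA, 0.26 for SDHB, 0.04 for SDHC and -0.48 for SDHD. SDHD held 2130 counts under siCont, 1714 under siERRG2 and 1553 under siERRG3, and SDHB 4098, 3670 and 4976. IDH2, the NADP-dependent mitochondrial isoenzyme, had 4069, 3730 and 2554 counts and was lowest in siERRG3, with a log2 fold change of -0.70 to siCont and of -0.55 to siERRG2. OGDHL, a relative of OGDH, had 548, 346 and 253 counts, and stood at -0.68 and -1.13 on the log2 scale. Over the 20 genes the interval lay below 1 for 8 and above 1 for 5, also close to these shares, and the median was -0.05.

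Genes that feed the cycle and exchange its intermediates were read from the other lists, whose counts stand against 19.2% lower and 16.4% higher of all genes for siERRG2, and 25.1% and 23.2% for siERRG3. Of 13 genes of pyruvate entry that passed the minimum, out of 14, 2 were called lower and 0 higher in siERRG2, and 3 lower and 1 higher in siERRG3, with medians of -0.04 and -0.08. PDK1, which encodes a kinase that switches off pyruvate dehydrogenase, had 1792, 1894 and 1287 counts, with a log2 fold change of -0.56 in siERRG3 against siERRG2. Of 18 genes of glutamine, aspartate and citrate exchange, out of 20, 1 was called lower and 4 higher in siERRG2, with a median of 0.14, and 4 lower and 2 higher in siERRG3, with a median of -0.04. SLC25A12, a mitochondrial carrier of aspartate and glutamate, had 570, 619 and 307 counts, so that siERRG3 stood apart, by -0.91 to siCont and -1.01 to siERRG2 on the log2 scale. ME1, the cytosolic malic enzyme, had 84, 156 and 145 counts, higher by 0.86 and 0.75 on the log2 scale.

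Of 10 genes of assembly, lipoylation and metabolite repair, 3 were called higher and 2 lower in siERRG2 (all genes, 16.4% and 19.2%), and 4 higher and 1 lower in siERRG3 (all genes, 23.2% and 25.1%), with medians of 0.18 and 0.12. LIPT2 was called lower in both knockdown libraries but had only 40, 31 and 28 counts. Its intervals, 0.463 to 1.26 for siERRG2 and 0.409 to 1.14 for siERRG3, hold 1. LIPT1, a lipoyltransferase, had 42, 64 and 51 counts, and its ratio in siERRG2 was 1.51 with a wide interval of 1.01 to 2.28. Over the 39 genes that the table assigns to the KEGG citrate cycle and that passed the minimum, 7 were called lower and 3 higher in siERRG2, with a median log2 fold change of -0.09, and 9 lower and 4 higher in siERRG3, with a median of -0.02, to be read against the same shares of all genes.

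Taken as a pair, their median log2 fold changes were -0.11 in siERRG2 and 0.02 in siERRG3, and 488 of the other 7245 well-covered genes lay within a distance of 0.1 of this pair. The nearest were SEC13, FLNA, SF1, TCP11L1 and FAM193B, at distances of 0.0042 to 0.0092 over 3 libraries. Of the 9 genes themselves, IDH3A, at 0.043, IDH3G, at 0.057, and SUCLG1, at 0.096, lay within 0.1 of their own median, and IDH3B lay farthest, at 0.71. The median was itself the value of IDH3A in siERRG2 and of IDH3G in siERRG3. The closeness of IDH3A and IDH3G to it was thus in part fixed in advance.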

How the data were processed

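RNA was sequenced in 3 libraries of H128 cells, grouped by their titles. The study's methods name BWA and Bowtie 2 and the build GRCh37/hg19, whereas the submitters' processing notes name TopHat2, HTSeq, DESeq2 and several builds without roles, and the coordinates of the table are those of GRCh38. The program used for counting is not given in the sources used here, nor is the use of strand. The authors deposited estimated counts (expected counts) per gene, not normalized, with 54.0% to 54.9% whole numbers (tolerance 0.005), and an expression value that behaves as FPKM, although its unit is not named. The authors' deposited log2 ratios and Poisson p-values were not used.

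Estimated counts were rounded, the 14031 of 17448 genes that reached 10 counts in any library were kept, and libraries were scaled with TMM in edgeR 4.0.16 (factors of 0.994 to 1.003) in R 4.3.3. Log2 CPM used a prior count of 2. Clopper-Pearson intervals of count ratios and conditional intervals of subunit ratios were computed with SciPy 1.17.1, and the computations were tested on simulated data. Counts of 3 or fewer were taken as a floor, and 0 of the 9 genes were near it. No model with replicates could be fitted. Values of single genes are not all reported here. Genes named from the lists are other cycle enzymes and, in each comparison, the 3 with the largest change among those with a mean of at least 50 counts, a 1.2-fold change and an interval that does not hold 1. Outside this rule, GOT2 and GLUD1 are named because they lay beyond counting error on opposite sides of siCont. GLS2 is named as the highest point for siERRG3 in the figure of the lists, and LIPT2 because it was called lower with intervals that hold 1. Neighbours that overlap a gene were named after their values were seen. The 9 genes and the lists were chosen with earlier results of these data known. Alternatives were total-count scaling, DESeq2 1.42.0 size factors, a prior count of 0.5, unrounded counts, all genes unfiltered, genes averaging 50 counts, FPKM with a pseudocount of 0.1 or 1, thresholds of 1.1-fold and 1.5-fold and the interval alone.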

Additional observations from a re-analysis of the deposited data

Results flagged for a closer look

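None of the 9 enzyme genes lay beyond counting error on opposite sides of siCont in the knockdown libraries. Of the genes of the lists around them that are reported here, 4 did, and the difference between the knockdown libraries was not tested, since each is 1 library. DLST of the 2-oxoglutarate dehydrogenase complex stood at -0.10 in siERRG2 but 0.16 in siERRG3 as log2 fold change. SDHB, the iron-sulfur subunit of succinate dehydrogenase, had -0.18 and 0.26. GOT2, the mitochondrial aspartate aminotransferase, had -0.081 and 0.19. GLUD1, glutamate dehydrogenase, had 0.19 in siERRG2 against -0.21 in siERRG3. Each of these changes was under 1.2-fold.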

How the results depend on the processing

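For the log2 fold changes of the 9 genes, all 216 values under the 8 alternatives of scaling, filter, rounding, prior count and unit kept their direction and moved by less than counting error, and their medians ranged from -0.11 to -0.09 (siERRG2), from 0.01 to 0.03 (siERRG3) and from 0.15 to 0.19 (siERRG3 against siERRG2). With FPKM and a pseudocount of 1, ESRRG stood at -1.52 and -1.45. Counts of calls moved most with the threshold. The shares of all genes at 1.2-fold and by the interval stand with the results above, and none was computed at 1.1-fold or 1.5-fold. The counts at those thresholds thus have no background here. For the 9 genes in siERRG2, 4 were lower and 1 higher at 1.1-fold, 0 lower at 1.5-fold, and 6 lower and 1 higher by the interval alone. In siERRG3, 3 were lower and 2 higher at 1.1-fold, 0 lower at 1.5-fold, and 4 lower and 2 higher by the interval. FH was lost, leaving 0 lower, with total counts, with a mean of 50 counts and with FPKM and a pseudocount of 1. Its log2 fold change there was -0.262, -0.260 and -0.262, just short of the threshold of 0.263, and -0.275 in the main setting. Between the knockdown libraries, 5 were higher at 1.1-fold, 0 lower and 0 higher at 1.5-fold, 2 lower and 6 higher by the interval, 3 higher with a mean of 50 counts, and 2 higher with FPKM and a pseudocount of 0.1 or 1. For the 52 other genes in siERRG2, 5 were lower with FPKM and a pseudocount of 1, 14 lower and 16 higher at 1.1-fold, 1 lower and 1 higher at 1.5-fold, and 16 lower and 16 higher by the interval. In siERRG3, 14 were higher at 1.1-fold, 3 lower and 2 higher at 1.5-fold, and 17 lower and 14 higher by the interval. Between the knockdown libraries, 24 were lower at 1.1-fold, 1 lower and 1 higher at 1.5-fold, and 19 lower and 14 higher by the interval. No paired analysis was possible because each condition has 1 library, and for the same reason no replicate could be left out.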
